A study of Caenorhabditis elegans with 20 samples.

Results

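Lysozymes are enzymes that cut the peptidoglycan of bacterial cell walls. In Caenorhabditis elegans, which eats bacteria, they serve both digestion and defence against infection, and several of them are made mainly in the intestine. The worm has a large lys family, whose closest relatives are the lysozymes of amoebae, and a separate ilys family of invertebrate-type lysozymes. The 10 genes described here are lys-1 to lys-8, lys-10 and ilys-3, taken by their sequence names from a table of transcript levels for 15568 genes. Of these 10, 7 had a row. The other 3 (lys-4, F58B3.1, lys-5, F58B3.2, and lys-6, F58B3.3, which lie side by side on chromosome IV) had none, and their sequence names are on the study's list of genes whose expression oscillates during larval development, which its authors left out of the expression analysis.

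The study asked whether the DREAM complex, which represses cell cycle genes and also regulates germline development genes, acts through the histone variant H2A.Z. The expression data compare animals lacking a DREAM subunit with animals short of H2A.Z. All animals were third-stage (L3) larvae grown at 20 °C in liquid culture, and RNA was taken from whole larvae of mixed sex. N2 is the wild-type strain. The lin-35 animals, strain JA1507, carried the n745 allele and lack the only Rb-like pocket protein of the worm, a core DREAM subunit. The htz-1 animals carried the ok3099 deletion of the H2A.Z gene and were homozygotes from heterozygous mothers that carried the balancer nT1[qIs51] (strain VC2490 in the sample labels, VC2480 in the study's methods). They therefore kept whatever H2A.Z product their mothers had supplied, and they were picked as larvae without green fluorescence on a large-particle sorter, a step not described for N2 or lin-35, so sorting and the htz-1 genotype cannot be told apart. Each genotype had 2 libraries, and no source says that the 2 came from separate cultures. The error behind each p-value therefore pools the spread between the 2 libraries of every genotype, moderated across genes, and could be technical. In whole larvae, a change in the number of cells that make a transcript and a change in the amount per cell cannot be told apart.

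Levels are given in RPKM, a read number corrected for the length of the gene model and for sequencing depth, as deposited. The libraries held 13604791 to 18301926 reads in all. Transcript of htz-1 itself stood at 78.5 and 81.3 RPKM in N2, 138 and 155 in lin-35 larvae, and 65.6 and 27.8 in the htz-1 animals. Both htz-1 libraries were lower than all others, the second by more than the first, and the change from N2 was -0.90 (log2, SE 0.33, limma adjusted p = 0.0762). The lin-35 transcript was 11.1 to 12.1 RPKM in N2 and 12.8 to 13.3 in lin-35, so its level does not check the label of the lin-35 libraries. Of the cell type markers, the 7 measured intestinal genes summed to 1290 to 1468 RPKM in N2, 893 to 989 in lin-35 larvae and 962 to 1092 in htz-1. act-5 alone was at 769 and 651 RPKM in N2, 436 and 371 in lin-35 larvae and 501 and 422 in htz-1. The intestinal markers elt-2 and ges-1 were higher in lin-35, so the sum does not stand for each marker. No marker was at 0 in any library.

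Of these 7 genes, 4 were abundant and 3 were low. In N2, lys-1 was the highest of the 7, at 268 and 260 RPKM, followed by lys-8 at 202 and 175, lys-2 at 89.2 and 71.6, and lys-7 at 50.4 and 44.3. These 4 did not overlap with one another in N2. The remaining 3 rested on few reads, with ilys-3 at 3.099 and 0.556 RPKM (27 and 4 reads), lys-10 at 1.71 and 1.17 (23 and 13 reads), and lys-3 at 0.475 and 0.790 (8 and 11 reads). The values of ilys-3 overlapped with those of both others, so ilys-3 cannot be placed in order against them. Among all genes of a library, lys-1 stood at the 98.2nd to 99.1st percentile of level in the 6 libraries and lys-3 at the 35.3rd to 64.5th. The gene model behind the lys-1 values was 1573 bases long, as recovered from the steps of the RPKM values, against a span of 1153 bases in the RefSeq table. How a shorter model would move the level of lys-1 was not tested.

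**Figure D1:**
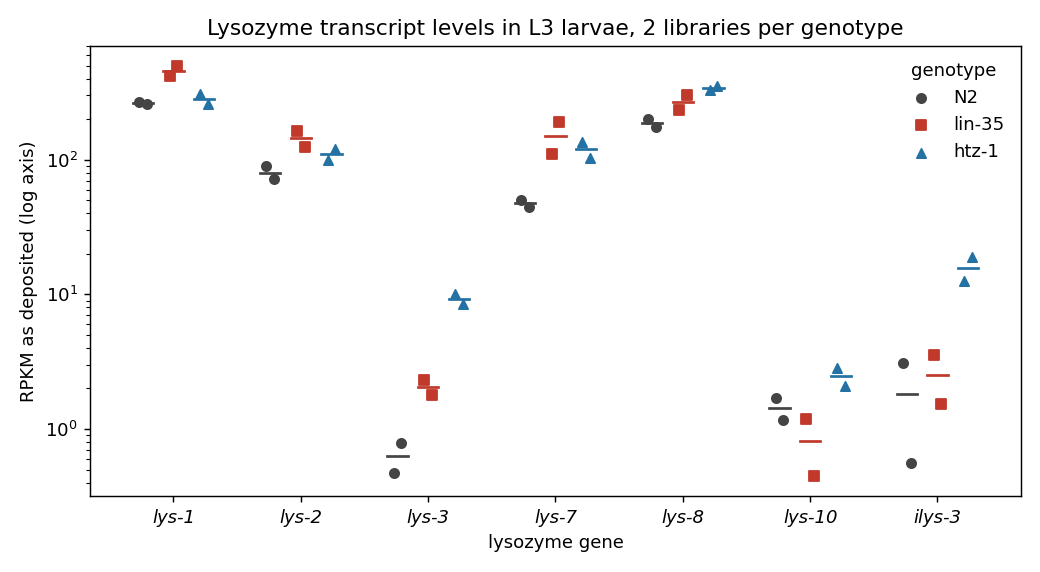
RPKM of the 7 measured lysozyme genes in each library, on a log axis, with points for the 2 libraries of each genotype and a bar at their mean. The N2 points of lys-3, near 0.475 to 0.790, lie below both mutants, whereas the 2 N2 points of ilys-3 are far apart.

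Every lysozyme gene of the 7 that passed the test against N2 was higher in the mutant. In lin-35, 4 of the 7 were higher and 0 lower (lys-1, lys-2, lys-3 and lys-7), where 23.8% of the 9679 genes tested changed and 12.1% were higher and 11.6% lower. In htz-1, 4 were higher and 0 lower (lys-3, lys-7, lys-8 and ilys-3), where 31.7% of all genes changed and 15.2% were higher and 16.5% lower. Both lists held lys-3 and lys-7. Since lys-3 had an N2 mean under the filter of 1 RPKM and was tested through its mutant values, these counts could hardly take it as lower. The median change of the 7 genes was 0.61 in lin-35 larvae and 0.85 in htz-1 on the log2 scale, beside medians of -0.01 and 0.00 over all genes tested. Both comparisons use the same N2 libraries, so the mutants were also compared directly. There lys-1 was higher in lin-35 and lys-3, lys-8, lys-10 and ilys-3 were lower, making 5 of 7, where 29.8% of all genes differed (15.3% higher and 14.5% lower in lin-35). A change is called here at an adjusted p of 0.05 in limma (moderated test on log2(RPKM + 0.5), Benjamini-Hochberg over all genes tested), and folds on this scale understate the change of low genes.

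**Figure D2:**
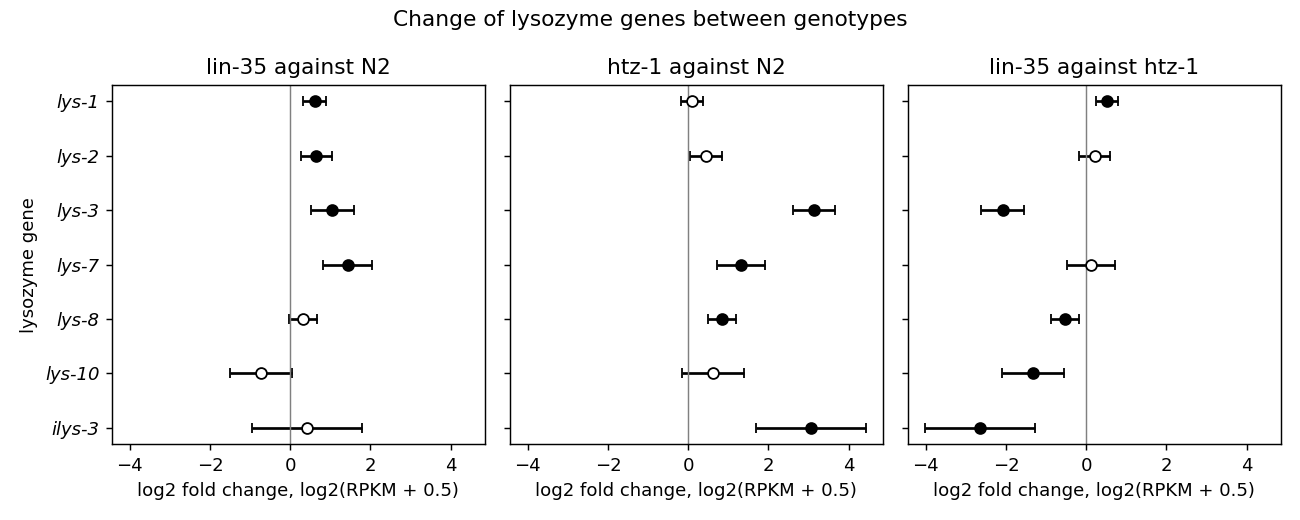
Log2 fold change on log2(RPKM + 0.5) of each lysozyme gene in lin-35 against N2, htz-1 against N2 and lin-35 against htz-1, with the 95% interval from limma. Filled points passed an adjusted p of 0.05: 4, 4 and 5 genes in the 3 panels, with lys-3 in htz-1 at 3.13.

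lys-7 (C02A12.4, chromosome V) was higher in both mutants. The gene encodes a lysozyme induced by bacterial infection and is activated by the FOXO factor DAF-16 of the insulin pathway. Its level was 50.4 and 44.3 RPKM in N2, 111 and 190 in lin-35 larvae, and 135 and 104 in htz-1. All 4 mutant libraries were above both N2 libraries, and the mutants overlapped with each other. The log2 change was 1.43 in lin-35 (SE 0.25, 2.69-fold, limma adjusted p = 0.00745) and 1.31 in htz-1 (SE 0.25, 2.47-fold, limma adjusted p = 0.00969). The direct difference was 0.12, with a 95% interval of -0.48 to 0.72 (limma adjusted p = 0.745), which leaves room for a difference in either direction. Without N2 replicate 2 the adjusted p was 0.0526 in lin-35 larvae and 0.0576 in htz-1.

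The neighbours lys-1 (Y22F5A.4), lys-2 (Y22F5A.5) and lys-3 (Y22F5A.6) follow one another on chromosome V, and each had its own pattern. lys-1, which is induced by Serratia marcescens infection, was at 268 and 260 RPKM in N2, 420 and 493 in lin-35 larvae, and 309 and 259 in htz-1. The lin-35 libraries were above all others, and N2 and htz-1 overlapped. lys-1 rose 1.52-fold in lin-35 (log2 change 0.61, SE 0.12, limma adjusted p = 0.0101) and was 0.09 in htz-1 (95% interval -0.18 to 0.37, limma adjusted p = 0.574). The direct difference of 0.51 passed the test (SE 0.12, limma adjusted p = 0.0182). Both calls were lost without single libraries. Without N2 replicate 1 or 2 the change from N2 had an adjusted p of 0.0585 or 0.0682, and without lin-35 replicate 2 or htz-1 replicate 2 the direct difference had 0.0552 or 0.101.

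lys-2 was at 89.2 and 71.6 RPKM in N2, 164 and 124 in lin-35 larvae, and 99.0 and 121 in htz-1. Every mutant library was above both N2 libraries, and the lower lin-35 library was close to the higher htz-1 library. It rose in lin-35 by 0.65 (log2, SE 0.17, 1.57-fold, limma adjusted p = 0.0301). In htz-1 the change was 0.44 (95% interval 0.05 to 0.84, limma adjusted p = 0.0846), and the difference between the mutants was 0.21 (-0.18 to 0.60, limma adjusted p = 0.379). This was the least stable of the lin-35 calls, with an adjusted p of 0.0513 with no filter on low genes, 0.0680 with no variance trend, and 0.0549, 0.185 and 0.130 without N2 replicate 1, N2 replicate 2 and lin-35 replicate 1.

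lys-3 was higher in both mutants, and htz-1 was far above lin-35. Its level was 0.475 and 0.790 RPKM in N2 (8 and 11 reads), 2.33 and 1.79 in lin-35 (32 and 25 reads), and 10.0 and 8.46 in htz-1 (161 and 106 reads). The 3 genotypes did not overlap. The N2 mean was 0.633 RPKM. It rose in htz-1 by 3.13 (log2, SE 0.23, limma adjusted p = 0.000447), a ratio of 14.5 between the scaled means, and in lin-35 by 1.05 (SE 0.23, limma adjusted p = 0.0154), a ratio of 2.86. The level in lin-35 was 5.07-fold below that in htz-1 (log2 difference -2.08, SE 0.23, limma adjusted p = 0.00103). The htz-1 call and the direct difference held under all 15 alternatives run for each, with a htz-1 change of 3.89 in limma-voom on the recovered reads, whereas the lin-35 call had an adjusted p of 0.0722 with quantile normalization, 0.0880 without N2 replicate 1 and 0.0661 without lin-35 replicate 1. The gene after lys-3, B0024.3, was at 1.13 to 3.14 RPKM in the 6 libraries and changed by 0.33 in lin-35 larvae and 0.34 in htz-1 (limma adjusted p = 0.504 and 0.437), neither of which passed the test.

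lys-8 (C17G10.5), on chromosome II, is a target of the TGF-beta-like DBL-1 pathway. It was at 202 and 175 RPKM in N2, 233 and 301 in lin-35 larvae, and 332 and 350 in htz-1. The order was N2, lin-35, htz-1 with no overlap. On scaled values, N2 replicate 1 and lin-35 replicate 1 were nearly level, at 209 and 210 RPKM. The rise in htz-1 was 1.80-fold (log2 change 0.85, SE 0.15, limma adjusted p = 0.00620), and this call held under all 15 alternatives. In lin-35 the change was 0.31 (95% interval -0.03 to 0.66, limma adjusted p = 0.177), and it passed the test at 0.49 on RPKM as deposited, at 0.55 with quantile normalization and at 0.52 without lin-35 replicate 1 (adjusted p = 0.0332, 0.0393 and 0.0270). The difference between the mutants, -0.54 (SE 0.15, limma adjusted p = 0.0328), lost its call under 10 of 15 alternatives, where the adjusted p was 0.0511 to 0.139.

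ilys-3 (C45G7.3, chromosome IV) is an invertebrate-type lysozyme made in the pharynx and intestine and needed for the disruption of ingested bacteria. It was at 3.099 and 0.556 RPKM in N2 (27 and 4 reads), 3.52 and 1.52 in lin-35 (25 and 11 reads), and 12.7 and 18.99 in htz-1 (105 and 123 reads). Both htz-1 libraries stood above all others, and N2 and lin-35 overlapped. The 2 N2 libraries differed beyond counting error: their exact Poisson intervals of 2.04 to 4.51 and 0.152 to 1.42 RPKM do not meet, and the residual SD of the gene, 0.85 on the log2 scale, was at the 99.7th percentile of all genes tested. Even so, ilys-3 rose in htz-1 by 3.05 (log2, SE 0.58, limma adjusted p = 0.00877), a ratio of 8.69 between scaled means. In lin-35 the change was 0.41 with an interval of -0.96 to 1.78 (limma adjusted p = 0.663), and the direct difference was -2.64 (SE 0.58, limma adjusted p = 0.0158). The change from N2 was 3.94 without N2 replicate 1 and 2.16 without N2 replicate 2 (adjusted p = 0.00773 and 0.0262), and without htz-1 replicate 2 it was 2.75 with an adjusted p of 0.0557, and the direct difference had 0.0890 without that library and 0.0697 without lin-35 replicate 2.

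lys-10 (F17E9.11), which lies among histone genes on chromosome IV, was low in every library. It was at 1.71 and 1.17 RPKM in N2 (23 and 13 reads), 1.19 and 0.449 in lin-35 (13 and 5 reads), and 2.82 and 2.10 in htz-1 (36 and 21 reads). The htz-1 libraries were the highest and lin-35 the lowest on average, and the higher lin-35 library was level with the lower N2 library. Neither mutant passed the test against N2, with -0.72 in lin-35 (95% interval -1.49 to 0.05) and 0.61 in htz-1 (-0.16 to 1.38), at limma adjusted p of 0.160 and 0.194. The direct difference was -1.33 (SE 0.33, limma adjusted p = 0.0228), and it had an adjusted p of 0.0662, 0.0946 and 0.0666 without lin-35 replicate 2, htz-1 replicate 1 and htz-1 replicate 2.

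**Figure D3:**
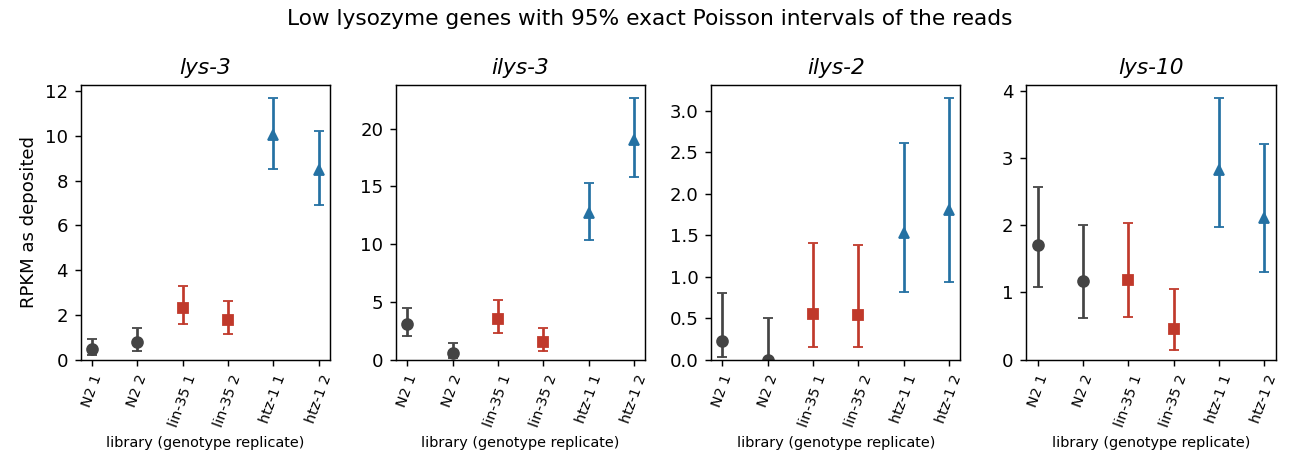
RPKM of 4 low lysozyme genes in each library, with 95% exact Poisson intervals of the recovered reads, which cover counting error only. In htz-1, lys-3 (10.0 and 8.46) and ilys-3 (12.7 and 18.99) lie clear of every other library, and the N2 intervals of ilys-3 do not meet.

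Because the 4 abundant genes moved by different amounts, the makeup of the transcripts of these 7 genes changed. The 7 genes together summed to 615 and 554 RPKM in N2, 935 and 1112 in lin-35 larvae, and 900.2 and 863 in htz-1. The share of lys-1 was 43.6% and 46.9% in N2, 44.9% and 44.4% in lin-35 larvae, and 34.3% and 30.0% in htz-1. That of lys-8 was 32.9% and 31.7%, 24.9% and 27.1%, and 36.9% and 40.6% in the same order. So lys-8 was above lys-1 in both htz-1 libraries and below it in the other 4, and the share of lys-7 was 8.20% and 8.01% in N2 and 11.9% to 17.1% in the mutant libraries. The sums and shares leave out ilys-5, which was at 262 and 274 RPKM in N2, 121 and 123 in lin-35 larvae, and 396 and 278 in htz-1. They use RPKM as deposited, before scaling. Scaling divided the lin-35 libraries by 1.108 and 1.063 and the others by 0.946 to 0.979. These sums are a description, with no test.

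**Figure D4:**
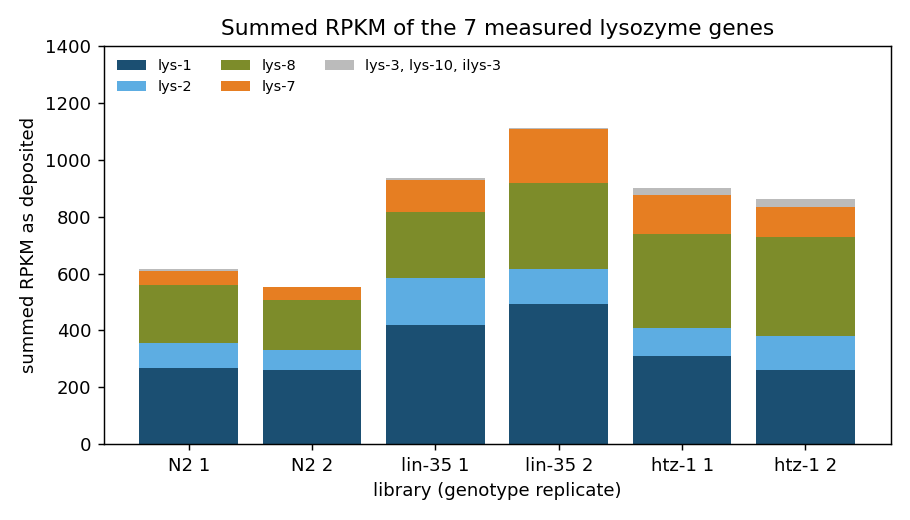
Summed RPKM of the 7 measured lysozyme genes in each library, as deposited, stacked by gene. The sums were 615 and 554 in N2 and 863 or more in each mutant library, and lys-8 makes the widest band in both htz-1 libraries.

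The other 6 lysozyme genes of the worm were lys-9, ilys-1, ilys-2, ilys-4, ilys-5 and ilys-6. ilys-5 was at 262 and 274 RPKM in N2, 121 and 123 in lin-35 larvae, and 396 and 278 in htz-1, as high as lys-1 in N2. It was the one lysozyme called lower in lin-35 against N2, by 1.31 on the log2 scale (SE 0.15, 2.49-fold lower in scaled means, limma adjusted p = 0.00105), while its htz-1 change was 0.30 (limma adjusted p = 0.159). ilys-4 rose in lin-35 from 12.2 and 10.7 RPKM to 19.9 and 20.3 (log2 change 0.62, SE 0.15, limma adjusted p = 0.0261) and was at 11.7 and 14.9 in htz-1. Next to ilys-3 on chromosome IV, ilys-2 was under the filter on low genes, with 2 and 0 reads in N2, 4 and 4 in lin-35 larvae, and 13 and 12 in htz-1. Its summed reads were higher in htz-1 than in N2 by a depth-corrected ratio of 13.5, with a 95% interval for counting error of 3.36 to 117. Taking 3 reads as the limit that a count of 0 allows, ilys-2 could be at up to 0.406 RPKM in N2 replicate 2. lys-9, ilys-1 and ilys-6 did not pass 0.797 RPKM in any library. Related copies such as lys-1 to lys-3, or ilys-1 to ilys-3, could share reads, and strand was not stated for the counting, so their values are uncertain to that extent.

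Genes with patterns most like the lysozymes were sought among 9678 other tested genes, by the Euclidean distance between the 6 log2 values after centring each gene. lys-1 was nearest to Y56A3A.30 (distance 0.13) and Y105E8A.24 (0.15). For lys-2 the nearest was elt-2 (0.16), the GATA factor of the intestine, followed by Y39A3A.4 (0.16). lys-7 was nearest to F45D3.4 (0.19) and glc-1 (0.32), a glutamate-gated chloride channel, and lys-8 to nhr-170 (0.10) and srj-14 (0.18). F45D3.4 was at 96.6 and 83.3 RPKM in N2, 187 and 333 in lin-35 larvae, and 265 and 181 in htz-1, so the library that was high for lys-7 within each mutant was also high for this gene. lys-3 was nearest to nhr-99 (0.69) and ZC395.5 (0.72), and lys-10 to nhr-287 (0.34) and Y9C9A.16 (0.55). The nearest to ilys-3, F16G10.13 (1.31) and nspa-7 (1.33), were farther away than those of the other 6. Both were at 0 RPKM in N2 and in lin-35 replicate 2. They reached the filter of 1 RPKM only through htz-1, where F16G10.13 was at 2.73 and 5.41 and nspa-7 at 2.19 and 3.50. Their likeness to ilys-3 therefore rests largely on the htz-1 libraries. These are distances over 6 libraries that share depth and scaling, given as a description.

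Other antibacterial effectors did not move one way. Of 14 caenopores tested, saposin-like proteins that form pores in bacterial membranes, 5 were higher and 2 lower in lin-35 larvae, and 5 were higher and 1 lower in htz-1, with medians of 0.19 and 0.08. That is 50.0% and 42.9% of the list, beside 23.8% and 31.7% of all genes. spp-15 rose in both mutants, from 23.9 and 20.6 RPKM in N2 to 81.4 and 62.9 in lin-35 larvae and 50.8 and 61.2 in htz-1 (log2 changes 1.49 and 1.30, limma adjusted p = 0.000726 and 0.00154). spp-2 also rose in both, by 1.34 and 1.29 (limma adjusted p = 0.00712 and 0.00742). spp-22 rose in htz-1 by 1.11 (limma adjusted p = 0.00192) and in lin-35 by 0.70 (limma adjusted p = 0.0107). spp-18 rose in lin-35 by 1.59 (limma adjusted p = 0.0154). In contrast, spp-17 fell in lin-35 by 2.62 (limma adjusted p = 0.00118), as did spp-4 by 1.83 (limma adjusted p = 4.65e-05). spp-4 also fell in htz-1, by 0.31 (limma adjusted p = 0.0287). spp-8 rose in htz-1 by 1.35 (limma adjusted p = 0.000472). Of 36 other secreted antimicrobial peptide genes listed, 18 had a row and 8 were tested. Of these 8, 1 was higher and 1 lower in each mutant, or 2 of 8 beside 23.8% and 31.7% of all genes. The gene higher in lin-35 was cnc-11, at 0.689 and 0.278 RPKM in N2 and 1.41 and 3.05 in lin-35 larvae. Both N2 values were under the filter of 1 RPKM. This gene was thus tested through its mutant values and could hardly be called lower. The gene that fell in both was nlp-24, at 967 and 1274 RPKM in N2 and 167 to 248 in the mutant libraries.

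The share of immune and intestinal regulators that changed was near that of all genes, with no test of the difference. It was a little lower against N2 and a little higher between the mutants (34.6% beside 29.8% of all genes). Of 26 immune signalling and intestinal regulator genes tested, 4 were higher and 1 lower in lin-35 larvae, and 4 were higher and 3 lower in htz-1, with medians of 0.16 and 0.23. That is 19.2% and 26.9% of the list, beside 23.8% and 31.7% of all genes. In lin-35, vhp-1, a phosphatase that restrains stress MAP kinases, rose by 0.80 (limma adjusted p = 0.0155), pqm-1, a zinc finger factor that acts opposite DAF-16, by 0.77 (limma adjusted p = 0.0181), and elt-2 by 0.65 (limma adjusted p = 0.0332). vhp-1 was also called higher in htz-1, by 0.69 (limma adjusted p = 0.0228). elt-2 was at 13.9 and 12.2 RPKM in N2, 28.1 and 19.6 in lin-35 larvae, and 17.6 and 20.0 in htz-1. In htz-1, akt-1, the insulin pathway kinase that inhibits DAF-16, rose by 1.45 (limma adjusted p = 0.00140) and fshr-1, a receptor required for resistance to infection, by 1.13 (limma adjusted p = 0.000906), while dkf-2, a protein kinase D, fell by 1.17 (limma adjusted p = 0.00733) and hlh-30, the TFEB-like regulator of lysosomal genes, fell by 0.86 (limma adjusted p = 0.00285).

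Intestinal markers moved the other way from the lysozymes in part. Of 12 listed, 7 had a row and were tested. Of these 7, 4 were lower and 2 higher in lin-35 larvae, where 11.6% of all genes were lower and 12.1% higher. In htz-1, 3 were lower and 0 higher, where 16.5% of all genes were lower and 15.2% higher. The 2 higher in lin-35 were elt-2 and ges-1. ges-1 stood at 26.9 and 26.9 RPKM in N2, at 42.9 and 45.4 in lin-35 larvae and at 32.6 and 27.3 in htz-1. The largest fall in htz-1 was that of pept-1, by 0.98 (limma adjusted p = 0.00941), which also fell in lin-35 by 0.92 (limma adjusted p = 0.0132). nhx-2, a sodium-proton exchanger of the intestine, stood at 67.7 and 62.6 RPKM in N2, at 40.1 and 32.3 in lin-35 larvae and at 42.8 and 44.5 in htz-1. act-5, the intestinal actin, stood at 769 and 651 RPKM in N2, at 436 and 371 in lin-35 and at 501 and 422 in htz-1. The other sites where ilys-3 is made showed smaller shifts. The 2 pharynx markers with a row, of 6 listed, summed to 20.8 to 21.5 RPKM in N2, 22.1 to 29.4 in lin-35 larvae and 24.2 to 26.7 in htz-1. The 3 coelomocyte markers summed to 29.7 to 32.1, 31.04 to 33.7 and 30.6 to 33.6 in the same order. Germ cell markers, 8 in all, summed to 249 to 271 RPKM in N2, 582 to 638 in lin-35 larvae and 293 to 357 in htz-1, and 6 body wall muscle markers to 2967 to 3191, 2221 to 2519 and 3096 to 3170, again in that order. In lin-35, 4 of the 8 germ cell markers were called higher and 0 lower (median 0.24), beside 12.1% and 11.6% of all genes. Of the 6 muscle markers, 0 were higher and 5 lower there. In htz-1 the counts were 3 and 0 for germ cells and 0 and 0 for muscle, beside 15.2% and 16.5%. The part of these marker sets in the lysozyme changes was not tested.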

How the data were processed

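RNA from 6 libraries (3 genotypes, 2 each) of the 20 samples in the series was used. Per the labels and the study's methods, the authors aligned reads to ce10 with BWA, counted them over gene models with HTSeq (union mode), removed oscillating genes, and deposited RPKM per gene. The deposited table also holds the authors' mean RPKM per genotype and their DESeq2 log2 fold changes and p-values, none of which was used. RPKM values are not counts, so limma 3.58.1 (R 4.3.3) was applied to log2(RPKM + 0.5) of values scaled by median of ratios, for the 9679 of 15568 genes whose mean over the 6 libraries reached 1 RPKM, with all genotypes in 1 fit and Benjamini-Hochberg adjustment at 0.05. With 2 libraries against 2, an exact permutation test cannot go below p = 0.333, so calls lean on the variance pooled across genes (3 residual and 4.01 prior degrees of freedom).

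Whole reads were recovered from the steps of the RPKM values for all 14547 genes above 0, within 0.002 reads, of which 115 left a common factor open. They gave the depth and exact Poisson intervals (scipy 1.17.1), which cover counting error only. The fit was tested on simulated data. Symbols matched 15397 gene names of the RefSeq table, which is on another build than ce10, so no coordinates are given and it served for names and gene order alone. The text names all 10 lysozyme genes, the other measured lysozyme genes, the leading called genes of each list and comparison by size of change (4 at most), the 2 genes nearest in pattern, and the mutated genes. The members and lists were chosen with earlier results of these data known. Alternatives were scaling, pseudocount, filter, variance trend, replicate block, genotypes fitted, recovered reads with limma-voom, and each library left out.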

Additional observations from a re-analysis of the deposited data

Results flagged for a closer look

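Fitted changes from N2 pointed opposite ways in the mutants for lys-10 and ilys-5, and the direct comparison of lin-35 with htz-1 passed the limma test. For lys-10 the log2 difference was -1.33 (limma adjusted p = 0.0228), from -0.72 in lin-35 and 0.61 in htz-1, neither of which passed the test against N2. For ilys-5 it was -1.61 (limma adjusted p = 0.000466), from -1.31 in lin-35, which passed, and 0.30 in htz-1, which did not. Of the histone genes near lys-10, his-32 differed by -1.02 between lin-35 and htz-1 (limma adjusted p = 0.00561) and rose by 0.65 in htz-1 (0.0266). his-30 differed by -0.79 (0.124), rose by 1.59 in htz-1 (0.0138) and changed by 0.81 in lin-35 (0.139). The part of these neighbours in the lys-10 values was not tested.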

How the results depend on the processing

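The 7 lysozyme genes gave 315 gene values under alternatives, of which 277 kept their direction and their side of the threshold, 30 lost a call, 3 gained one and 5 changed sign. Leaving out each library gave 1 to 4 called lysozyme genes in lin-35 against N2 (1 without either N2 library: lys-7 without replicate 1, lys-3 without replicate 2), 3 to 4 in htz-1 against N2, and 1 to 4 in lin-35 against htz-1 (2 without lin-35 replicate 2, 3 without htz-1 replicate 1, 1 without htz-1 replicate 2). Over all genes the counts were 1113 to 2330 (2300 with all libraries), 1170 to 3299 (3068) and 1474 to 2382 (2889). The 5 values that changed sign were not called in any setting: ilys-3 in lin-35 against N2 (-0.49 to 1.30 over the left-out libraries, with -0.49 without N2 replicate 2 and -0.06 without lin-35 replicate 1), lys-1 in htz-1 against N2 (-0.002 to 0.199, the lowest without htz-1 replicate 1), and lys-7 in lin-35 against htz-1 (-0.29 to 0.54, with -0.29 without lin-35 replicate 2 and -0.06 without htz-1 replicate 2). Their cause was not tested.

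RPKM as deposited put the median of all genes at 0.154 in lin-35 against N2, beside -0.01 with scaling, with 1781 higher and 592 lower where the scaled values gave 1175 and 1125, and at 0.163 in lin-35 against htz-1, beside 0.00, with 2286 and 815 where they gave 1484 and 1405. Replicate numbers were not treated as pairs, since only 2 pairs exist per comparison and the labels do not tie a number to a batch. The correlations of the replicate differences across genes were 0.32, 0.10 and 0.02. With a replicate block the genes called were 2568, 3391 and 3218, and the lysozyme counts stayed at 4, 4 and 5. Depth limits lys-3, lys-10 and ilys-3, which had 4 to 32 reads in N2 and lin-35 libraries.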

Other observations

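The tested digestive and lysosomal proteases, other enzymes that break down ingested bacteria, were mostly lower where they changed. Of 31 listed, 16 had a row and 9 were tested. Of these 9, 5 were lower and 1 higher in lin-35, and 3 were lower and 1 higher in htz-1, with medians of -0.43 and -0.15. The share that changed was 66.7% in lin-35 and 44.4% in htz-1, beside 23.8% and 31.7% of all genes. asp-3, an aspartic protease of the lysosome, was at 1074 and 967 RPKM in N2, 644 and 647 in lin-35 larvae, and 829 and 866 in htz-1. It fell by 0.84 in lin-35 and by 0.27 in htz-1 (limma adjusted p = 0.000680 and 0.0442). asp-2 fell by 0.55 in htz-1 and by 0.50 in lin-35 (limma adjusted p = 0.0123 and 0.0200). asp-1 fell by 0.52 in htz-1 and by 0.43 in lin-35 (limma adjusted p = 0.0129 and 0.0289). asp-17 rose in both, from 0.458 and 0.391 RPKM in N2 to 2.97 and 3.83 in lin-35 larvae and 1.10 and 1.16 in htz-1 (log2 changes 1.94 and 0.83, limma adjusted p = 0.00186 and 0.0405). It reached the filter of 1 RPKM only through the lin-35 libraries, so a rise was the only call it could give in that mutant.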
